A study of Homo sapiens with 6 samples.

Results

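Transcript levels were measured for 76 genes, out of 12982 quantified in SW480 cells. Most encode enzymes that write or remove methyl groups on histones and DNA or remove acyl groups from histones and other proteins. Guides and non-catalytic subunits such as UHRF1, EED and SUZ12 are among the 76, and all of these genes are called enzymes below. They were taken by symbol: the KDM, KMT, HDAC, SETD, DNMT, PRMT and SIRT families, with KDM3A left out, plus UHRF1 and UHRF2, the TET enzymes, the core of Polycomb repressive complex 2 (PRC2), and EHMT1, EHMT2, SUV39H1, SUV39H2, NSD1, NSD2 and DOT1L. Of the 16 genes that the choice named outright, 15 had a row, and TET1 was not analysed here. SW480 is an established human colorectal adenocarcinoma line, and the labels give its genotype as WT. One group received DMSO, the solvent, and the other MPM-1, a mitochondrial probe molecule labelled WT4 in the sample records, each for 24 h, and RNA was sequenced from 3 libraries per treatment. The dose of MPM-1 in this experiment is not given in the sources used here. Nothing says that the libraries came from separate cultures, so the p-values measure the spread between these libraries, which may be technical.

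Methyl marks on histone tails and on CpG sites are placed by methyltransferases, removed by demethylases and bound by reader proteins, and acetyl marks are removed by deacetylases. Methylation of H3K9, H3K27 and DNA generally accompanies silent chromatin, whereas methylation of H3K4 and H3K36 accompanies transcribed genes. DNMT1 and its guide UHRF1 copy DNA methylation onto newly replicated strands, and SUV39H1 and SUV39H2 methylate H3K9 in heterochromatin around centromeres. The enzymes also depend on metabolism: methyltransferases use S-adenosylmethionine, the JmjC-domain and TET demethylases use 2-oxoglutarate and oxygen, and sirtuins use NAD.

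Sequence before a RefSeq transcription start of 4 of these genes is shown because UHRF1 and UHRF2 are close paralogues whose transcripts went opposite ways, and because DNMT3B and SUV39H1 were among the lowered DNA and H3K9 methyltransferases described below. Each stretch comes from the 250 bases before the first RefSeq transcription start (GRCh38.p14, plus strand, 5′ to 3′). The stretches end before any base that GENCODE places in an exon of the gene, except the short one with the E2F word of UHRF1, which lies in such an exon. The UHRF1 and DNMT3B stretches lie inside the span that GENCODE gives these genes, since it also lists starts further upstream. Capitals mark a CCAAT box or, in the last 30 bases of the UHRF1 window, an E2F word, and these 2 words of UHRF1 do not overlap. The stretches lie at chr19:4909251-4909429 and chr19:4909471-4909500 (UHRF1), chr9:6412949-6413150 (UHRF2), chr20:32779602-32779851 (DNMT3B) and chrX:48695304-48695553 (SUV39H1).
UHRF1: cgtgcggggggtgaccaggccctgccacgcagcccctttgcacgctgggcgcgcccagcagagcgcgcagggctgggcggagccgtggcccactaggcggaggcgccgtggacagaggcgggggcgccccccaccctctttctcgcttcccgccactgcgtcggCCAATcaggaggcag
UHRF1 E2F word: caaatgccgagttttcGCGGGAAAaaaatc
UHRF2: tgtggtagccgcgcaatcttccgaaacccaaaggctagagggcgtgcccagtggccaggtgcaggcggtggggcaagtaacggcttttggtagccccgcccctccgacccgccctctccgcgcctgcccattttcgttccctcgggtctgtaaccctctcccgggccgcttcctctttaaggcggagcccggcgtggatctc
DNMT3B: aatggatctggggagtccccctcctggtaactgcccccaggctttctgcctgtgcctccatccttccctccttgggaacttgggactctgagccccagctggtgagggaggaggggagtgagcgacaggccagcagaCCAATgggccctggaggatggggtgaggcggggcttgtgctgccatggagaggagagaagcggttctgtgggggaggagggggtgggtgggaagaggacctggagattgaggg
SUV39H1: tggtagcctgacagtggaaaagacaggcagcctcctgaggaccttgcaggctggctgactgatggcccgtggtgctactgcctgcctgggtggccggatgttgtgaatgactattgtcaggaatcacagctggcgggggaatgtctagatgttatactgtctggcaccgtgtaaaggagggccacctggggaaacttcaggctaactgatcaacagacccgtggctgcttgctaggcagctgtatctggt

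A window of this kind was found for 72 of the 76 enzymes and was searched on both strands for 4 motifs. The comparison set was all 27305 genes with such a window, whether or not they were among the 12982 quantified, so the shares below compare unlike sets. An E2F word (TTTCCCGC, TTTCGCGC, TTTGCCGC or TTTGGCGC) was present in 6 of the 72 windows, or 8.33%, and in 2.78% of the windows of the 27305 genes. The 6 were EZH1, KDM1B, NSD2, SIRT6, SUZ12 and UHRF1, and of these only UHRF1 had a lower transcript level at the threshold used below. The CCAAT box (CCAAT) was in 31.9% of the enzymes' windows and 33.0% of all windows. The cell cycle homology word (TTTGAA) was in 5.56% against 13.6%, and the ATF4 composite word (TGATGNAA) was in none of the 72 windows and in 3.19% of all. The UHRF2 and SUV39H1 windows held none of the 4 words. These are matches of letters in a short window and not sites shown to be bound.

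The total count ranged from 32095456 to 40269820 in the DMSO group and from 31733667 to 35403841 in the MPM-1 group, and no enzyme had fewer than 6 counts in any library. The first principal component of all genes held 72.8% of the variance. The labelled cell type was checked against 10 colorectal epithelial markers, which all had a row. At the threshold given below 4 of them rose, among them KRT18 and KRT19 (log2 fold change 0.89 each), and 5 fell: CDX2 (-2.20), KRT20 (-2.03), CDX1 (-0.98), VIL1 (-0.88) and CDH17 (-0.47). EPCAM was at 676 ± 49.98 CPM (TMM-scaled counts relative to library size; SD, n = 3) after DMSO and 676 ± 33.3 after MPM-1. The part of these marker shifts in the results was not tested. Of 15 fibroblast, immune and endothelial markers, only COL1A1, below 4 CPM in every library, and CD68, a lysosomal protein gene at 57.3 to 86.0 CPM after DMSO and 136 to 153 CPM after MPM-1, had a row, and their part in the results was not tested. Per transcript length, in FPKM as the authors computed it, the median enzyme stood at 6.28 in DMSO, against 7.60 for all genes. PRMT1, the main asymmetric arginine methyltransferase, was the most abundant enzyme at 227 ± 6.39 FPKM (SD, n = 3), followed by HDAC1 at 59.3 ± 0.560, the H3K4 demethylase KDM1A at 53.2 ± 2.55, SIRT7 at 51.2 ± 6.04 and PRMT5 at 47.6 ± 3.84. The place of HDAC2 in this order is uncertain, as its FPKM was uneven between DMSO libraries (14.9, 59.1 and 17.9). In CPM, which is not corrected for length, HDAC2 stood at 164, beside 305 for PRMT1, 157 for KDM1A and 123 for HDAC1. DNMT3A was the least abundant at 0.647 ± 0.0181 FPKM.

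After MPM-1, 19 of the 76 enzymes were higher and 22 were lower than after DMSO at an adjusted p-value under 0.05 (edgeR's quasi-likelihood test, Benjamini-Hochberg adjustment over all 12982 genes), and "rose" and "fell" are used below only of these, with SE for the standard error of the log2 fold change. The counts were close to those of the transcriptome as a whole: 53.9% of the enzymes passed against 56.5% of all genes tested, with 25% against 27.7% in the upward and 28.9% against 28.8% in the downward direction. Their median log2 fold change was -0.017, beside -0.026 for all genes. Changes of at least 1 on the log2 scale at an adjusted p-value under 0.01 were found in 7 enzymes, all of them lower: KDM8, PRMT6, UHRF1, SUV39H1, SIRT4, KDM2B and DNMT3B. Of these, UHRF1 and SUV39H1 kept the stricter call under all 15 alternative settings, KDM2B under 14, KDM8 and DNMT3B under 12, and PRMT6 and SIRT4 under 10, where a filter on low values that removed KDM8 or PRMT6 counts against them. Leaving out a library ended it for SIRT4 (any but MPM-1 replicate 2), for PRMT6 (DMSO replicates 2 and 3 and MPM-1 replicate 3) and for DNMT3B (replicate 3 of either treatment). The 7 make up 9.21% of the enzymes, against 8.75% of all genes in this direction and 5.58% in the other. In 43 enzymes, or 56.6%, the libraries of both treatments did not overlap in CPM, against 64.3% of all genes. In bulk RNA, a transcript lost from some cells and a lower level in every cell cannot be told apart. Scaling by library size alone, which shifted the median of all genes to -0.18, gave 15 higher and 28 lower enzymes.

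**Figure D1:**
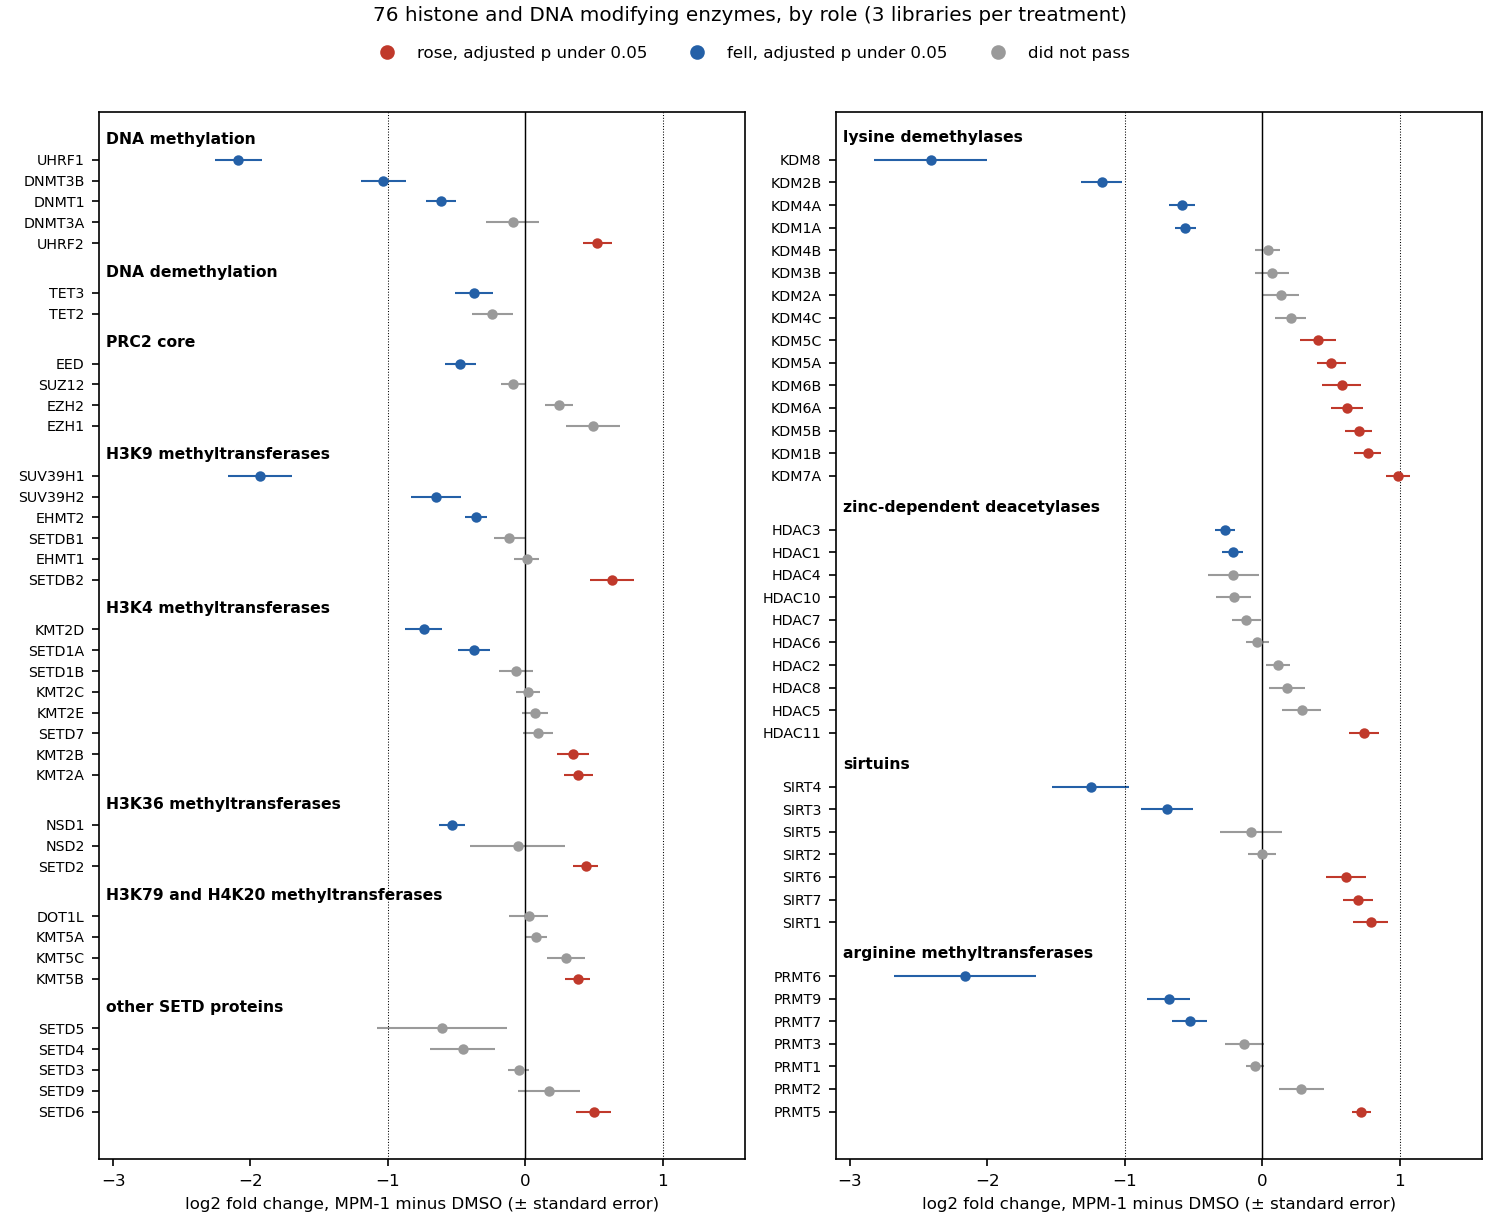
Log2 fold change of each of the 76 enzymes, MPM-1 minus DMSO, with its standard error as a bar, grouped by role; red points rose and blue points fell at an adjusted p-value under 0.05, grey points did not pass, and dotted lines mark a log2 fold change of 1 in either direction. The 7 enzymes past the lower line are spread over 5 roles, and KDM7A at 0.99 lies at the upper line.

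Within the DNA methylation machinery, UHRF1, DNMT3B and DNMT1 fell and UHRF2 rose. UHRF1 (ENSG00000276043, chr19:4903080-4962154) recognises hemimethylated CpG sites behind the replication fork and brings in DNMT1. Its level was 22.04, 31.8 and 26.3 CPM in the DMSO libraries and 5.28, 6.83 and 6.70 CPM in the MPM-1 libraries. The treatments did not overlap, and each treated library was far below the lowest control. The log2 fold change was -2.09 (SE 0.17, adjusted p = 1.13e-05). UHRF2 (chr9:6413151-6507054), its paralogue, stood at 35.5, 30.7 and 30.2 CPM after DMSO and at 49.99, 41.2 and 47.5 CPM after MPM-1, without overlap. It rose by 0.52 (SE 0.10, adjusted p = 0.00202). DNMT1 (chr19:10133345-10231286), the maintenance methyltransferase, had 74.7, 85.7 and 72.4 CPM after DMSO and 56.9, 43.7 and 51.6 CPM after MPM-1. This was a log2 fold change of -0.61 (SE 0.11, adjusted p = 0.00115). DNMT3B (chr20:32762385-32809356), which methylates unmodified CpG sites, was at 9.43, 8.85 and 10.4 CPM in DMSO libraries and at 4.63, 4.98 and 4.44 CPM in MPM-1 libraries. Its log2 fold change was -1.03 (SE 0.16, adjusted p = 0.000576). DNMT3A, the other de novo enzyme, gave overlapping values of 5.51 to 6.12 and 4.62 to 6.63 CPM and did not pass (log2 fold change -0.09, SE 0.19, adjusted p = 0.709).

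The TET dioxygenases oxidise methylcytosine on the way to its removal. TET3 was at 13.0, 15.3 and 14.8 CPM after DMSO and at 10.0, 11.9 and 11.3 CPM after MPM-1, which passed narrowly (log2 fold change -0.38, SE 0.14, adjusted p = 0.0418). Leaving out any library other than DMSO replicate 1 ended that call, with adjusted p-values of 0.0539 to 0.134. TET2 had 9.04 to 10.6 CPM in DMSO and 7.90 to 8.73 CPM in MPM-1 libraries and did not pass (log2 fold change -0.24, SE 0.15, adjusted p = 0.197). With library size alone TET2 did pass as lower (-0.39, adjusted p = 0.0485).

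PRC2, which methylates H3K27, showed a change in 1 of its 4 core transcripts, or 25%, where 56.5% of all genes passed. EED (chr11:86244544-86278813), the subunit that binds the finished mark and stimulates the enzyme, had 26.4, 24.3 and 25.5 CPM after DMSO and 16.5, 20.9 and 17.5 CPM after MPM-1. It fell, with a log2 fold change of -0.47 (SE 0.12, adjusted p = 0.00627). The catalytic subunit EZH2 stood at 28.8, 34.3 and 35.8 CPM in DMSO libraries and at 41.3, 38.8 and 37.0 CPM in MPM-1 libraries, higher in each treated library than in any control but not past the threshold (log2 fold change 0.24, SE 0.10, adjusted p = 0.0681). For EZH1, the alternative catalytic subunit, the values were 8.46, 11.2 and 8.86 against 16.4, 13.3 and 10.5 CPM, which overlapped (log2 fold change 0.49, SE 0.20, adjusted p = 0.0545). EZH1 did pass without DMSO replicate 2 (adjusted p = 0.0425), without MPM-1 replicate 3 (adjusted p = 0.0203) and in DESeq2 (adjusted p = 0.0225). SUZ12, the scaffold subunit, had a log2 fold change of -0.09 (SE 0.09, adjusted p = 0.405), although it passed as lower with library size alone (-0.24, adjusted p = 0.0343).

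Of the 6 H3K9 methyltransferases, 3 fell and 1 rose, a share of 66.7% where 56.5% of all genes passed. SUV39H1 (ENSG00000101945, chrX:48695554-48709012) was at 14.9, 13.7 and 14.2 CPM after DMSO and at 2.49, 3.77 and 4.91 CPM after MPM-1. No treated library came near the controls, and the log2 fold change was -1.93 (SE 0.23, adjusted p = 0.000108). SUV39H2 (chr10:14878820-14904315), which places the same mark, had 9.01, 12.8 and 13.4 CPM in DMSO and 7.16, 7.999 and 7.30 CPM in MPM-1 libraries. Its smaller fall (log2 fold change -0.65, SE 0.18, adjusted p = 0.0129) no longer passed without DMSO replicate 2 (adjusted p = 0.0541) or without DMSO replicate 3 (adjusted p = 0.0593). EHMT2, which mono- and dimethylates H3K9 in gene-rich chromatin, fell by 0.36 on the log2 scale (adjusted p = 0.00452). Its partner EHMT1 had a log2 fold change of 0.01 (adjusted p = 0.942), and SETDB1, which silences retroelements, one of -0.12 (adjusted p = 0.397). SETDB2 (chr13:49444374-49495003) was at 6.49, 7.66 and 7.93 CPM after DMSO and at 10.1, 12.7 and 11.4 CPM after MPM-1. It rose by 0.63 (SE 0.16, adjusted p = 0.00817), a call not made by limma on log2(FPKM + 0.1) (adjusted p = 0.0928).

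The methyltransferases of active chromatin went in both directions and by less. Among 8 H3K4 enzymes, KMT2D, an enhancer enzyme, fell from 16.0 ± 1.17 to 9.62 ± 0.748 CPM (SD, n = 3; log2 fold change -0.74, adjusted p = 0.00133), and SETD1A, which acts at promoters, fell by 0.37 (adjusted p = 0.0211). KMT2A and KMT2B, which work with menin, rose by 0.39 (adjusted p = 0.0102) and 0.35 (adjusted p = 0.0297). The SETD1A call was lost without any 1 of 4 libraries, DMSO replicates 1 and 3 and MPM-1 replicates 2 and 3 (adjusted p = 0.0535 to 0.0863). That of KMT2B was lost without DMSO replicate 1 or 2 or MPM-1 replicate 1 or 3 (adjusted p = 0.056 to 0.118). With library size alone, neither KMT2A (adjusted p = 0.0598) nor KMT2B (adjusted p = 0.163) passed, and in limma on log2(FPKM + 0.1) their log2 fold changes were 0.14 (adjusted p = 0.455) and 0.19 (adjusted p = 0.286). The other 4, KMT2C, KMT2E, SETD1B and SETD7, had log2 fold changes of -0.07 to 0.09 and did not pass. Thus 50% of the 8 passed, where 56.5% of all genes did.

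Among the enzymes for H3K36, NSD1, which dimethylates it, fell from 28.2 ± 0.763 to 19.5 ± 0.951 CPM (log2 fold change -0.53, adjusted p = 0.00103). SETD2, the trimethylating enzyme that travels with elongating polymerase, rose from 24.9 ± 1.74 to 33.7 ± 0.601 CPM (log2 fold change 0.44, adjusted p = 0.00244), though not in limma on log2(FPKM + 0.1) (adjusted p = 0.0722). NSD2, the other dimethylating enzyme, varied more within a treatment than between them. It had 119, 61.5 and 55.7 CPM after DMSO and 99.1, 39.997 and 87.6 CPM after MPM-1 (log2 fold change -0.05, SE 0.34, adjusted p = 0.907). KMT5B, which di- and trimethylates H4K20, rose from 60.4 ± 6.35 to 78.5 ± 4.70 CPM (log2 fold change 0.38, adjusted p = 0.00655). Its counterpart KMT5C (log2 fold change 0.29, adjusted p = 0.0987), the H4K20 monomethylase KMT5A (0.08, adjusted p = 0.416) and the H3K79 enzyme DOT1L (0.03, adjusted p = 0.894) did not pass, although KMT5C did without DMSO replicate 1 (adjusted p = 0.00678). Of the 5 remaining SETD proteins, SETD6, which methylates the NF-kB subunit RELA, rose by 0.50 (adjusted p = 0.0091), but did not pass with library size alone (adjusted p = 0.0579) or in limma on log2(FPKM + 0.1) (adjusted p = 0.0628). The actin histidine methyltransferase SETD3 (-0.05) and SETD4, SETD5 and SETD9 (log2 fold changes of -0.46, -0.60 and 0.17) did not pass. With library size alone SETD3 did pass as lower (-0.20, adjusted p = 0.0366). SETD4 did pass as lower in limma on log2(FPKM + 0.1) (-0.63, adjusted p = 0.0472) and without MPM-1 replicate 2 (-0.65, adjusted p = 0.0416), and SETD5 with the replicate block (-0.71, adjusted p = 0.0328) and without MPM-1 replicate 2 (-1.37, adjusted p = 0.0108).

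Of the 15 lysine demethylases, the largest of the roles, 7 rose and 4 fell, a share of 73.3% where 56.5% of all genes passed. KDM8 (ENSG00000155666, chr16:27203495-27221768), a JmjC-domain protein first described as an H3K36 demethylase, showed the lowest log2 fold change of the 76 enzymes. It had 2.30, 1.39 and 2.76 CPM after DMSO and 0.263, 0.520 and 0.417 CPM after MPM-1, from 60 to 110 counts in the former and 8 to 16 in the latter. The groups were well apart (log2 fold change -2.41, SE 0.41, adjusted p = 0.000819), on few counts. KDM2B (chr12:121429097-121581015), which demethylates H3K36 and carries a variant Polycomb complex to CpG islands, was at 18.2, 20.1 and 17.6 CPM in DMSO and at 7.35, 9.66 and 7.89 CPM in MPM-1 libraries. It fell by 1.17 on the log2 scale (SE 0.15, adjusted p = 0.00015). RNF34, which overlaps it on the other strand, fell by 0.56 (adjusted p = 0.00392), and whether the counting used strand is not given in the sources used here. KDM4A, an H3K9 and H3K36 demethylase, fell by 0.58 (adjusted p = 0.000568), while its relatives KDM4B (0.04, adjusted p = 0.737) and KDM4C (0.21, adjusted p = 0.141) did not pass.

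The 5 demethylases of H3K4, a grouping made after the values were seen, all passed, 4 upward and 1 downward, where 56.5% of all genes passed. KDM1A (LSD1; chr1:23019443-23083689), a flavin-dependent enzyme of co-repressor complexes, had 167, 158 and 147 CPM after DMSO and 110, 108 and 103 CPM after MPM-1. It fell by 0.56 (SE 0.08, adjusted p = 0.000234). The related KDM1B (chr6:18155329-18223853) was at 21.8, 21.7 and 22.3 CPM in DMSO libraries and at 39.4, 33.2 and 39.6 CPM in MPM-1 libraries. It rose by 0.77 (SE 0.10, adjusted p = 0.000151), so that 2 enzymes of the same chemistry moved apart. KDM5B, which removes H3K4 trimethylation, rose from 22.7 ± 0.758 to 37.0 ± 3.48 CPM (log2 fold change 0.70, adjusted p = 0.000256). KDM5A and KDM5C rose by 0.50 (adjusted p = 0.00315) and 0.41 (adjusted p = 0.0253). Neither of these passed in limma on log2(FPKM + 0.1) (adjusted p = 0.0949 and 0.156). KDM5C also failed with library size alone (adjusted p = 0.097) and with any of DMSO replicates 2 and 3 and MPM-1 replicate 1 left out (adjusted p = 0.0575 to 0.0838).

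KDM6A and KDM6B, H3K27 demethylases grouped after the values were seen, both rose, where 27.7% of all genes did. KDM6B went from 22.5 ± 4.50 to 33.5 ± 2.88 CPM (log2 fold change 0.58, adjusted p = 0.00636). KDM6A went from 16.4 ± 1.73 to 25.1 ± 1.45 CPM (log2 fold change 0.62, adjusted p = 0.00139), without passing in limma on log2(FPKM + 0.1) (adjusted p = 0.115). KDM7A (ENSG00000006459, chr7:140084746-140177035), which acts on H3K9 and H3K27, showed the largest rise of the 76. Its level was 30.6, 30.7 and 27.1 CPM after DMSO and 56.4, 57.7 and 61.5 CPM after MPM-1, a log2 fold change of 0.99 (SE 0.09, adjusted p = 1.58e-05). It passed the stricter threshold under 6 of the 15 alternative settings, DESeq2 among them. The H3K36 demethylase KDM2A (0.13, adjusted p = 0.401) and the H3K9 demethylase KDM3B (0.07, adjusted p = 0.645) did not pass, the former except without DMSO replicate 1 (adjusted p = 0.0401).

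**Figure D2:**
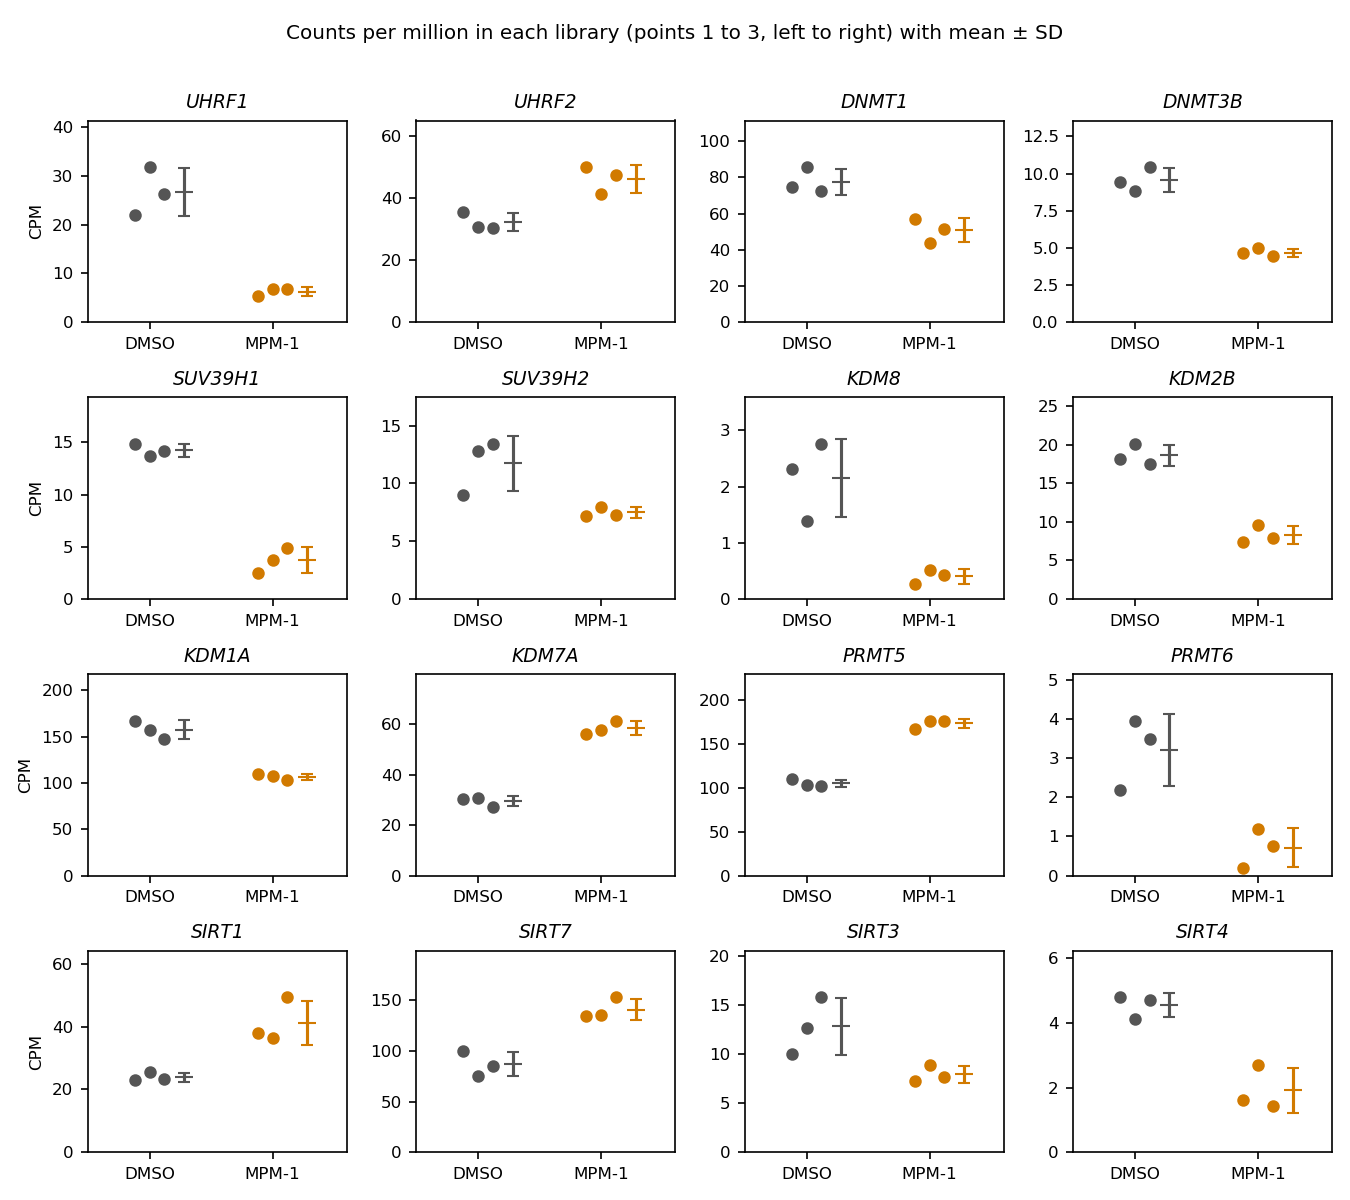
CPM in each library for 16 enzymes, DMSO in grey and MPM-1 in orange, points from left to right for replicates 1 to 3 and bars for mean and SD. The 16 were picked among enzymes that passed, and in none of them do the treatments overlap, as in 64.3% of all genes. UHRF1 and UHRF2 lie on opposite sides of their controls.

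Of the 10 zinc-dependent histone deacetylases, 1 rose and 2 fell, where 56.5% of all genes passed in either direction, a difference that was not tested. HDAC11 (chr3:13479724-13506424), the only class IV enzyme and an efficient remover of long acyl groups, was at 29.9, 25.5 and 23.5 CPM after DMSO and at 39.7, 45.7 and 46.2 CPM after MPM-1. It rose by 0.74 (SE 0.11, adjusted p = 0.00041). HDAC3, the deacetylase of the NCoR and SMRT co-repressors, had 75.3, 75.6 and 72.5 CPM in DMSO and 62.6, 58.9 and 63.4 CPM in MPM-1 libraries. It fell slightly, with a log2 fold change of -0.27 (SE 0.07, adjusted p = 0.00942). HDAC1 fell by 0.21 (adjusted p = 0.0393). That call was not made with DESeq2's size factors (adjusted p = 0.0657) or test (adjusted p = 0.0567), nor without any single library except MPM-1 replicate 1 (adjusted p = 0.0755 to 0.175). HDAC2, the close relative of HDAC1, had 145 to 176 CPM in DMSO and 171 to 183 CPM in MPM-1 libraries (log2 fold change 0.12, adjusted p = 0.286). The other class I member, HDAC8 (0.18), class IIa HDAC4, HDAC5 and HDAC7 (-0.21, 0.29 and -0.11) and class IIb HDAC6 and HDAC10 (-0.03 and -0.21) did not pass. HDAC5 did so without DMSO replicate 1 (adjusted p = 0.00985) and with the replicate block (adjusted p = 0.0197), and HDAC7 (adjusted p = 0.0381) and HDAC10 (adjusted p = 0.0331) with library size alone.

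Of the 7 sirtuins, 3 rose and 2 fell, where 27.7% of all genes rose and 28.8% fell. Grouped by the compartment of their proteins, a division made after the values were seen and not tested, the 3 that rose are the nuclear members and the 2 that fell are mitochondrial, and the mitochondrial SIRT5 and cytoplasmic SIRT2 did not pass. SIRT1 (chr10:67884669-67918390), which deacetylates histones and many transcription factors, stood at 22.9, 25.4 and 23.2 CPM after DMSO and at 37.9, 36.4 and 49.3 CPM after MPM-1. It rose by 0.79 (SE 0.12, adjusted p = 0.000539). SIRT7 (chr17:81911939-81921323), which is enriched in the nucleolus, was at 99.8, 75.9 and 85.4 CPM in DMSO and at 134, 136 and 153 CPM in MPM-1 libraries. It rose by 0.70 (SE 0.11, adjusted p = 0.000463). MAFG, which overlaps SIRT7 on the same strand, rose by 0.92 (adjusted p = 7.67e-05), and how reads were assigned between overlapping genes is not given. SIRT6, a chromatin deacetylase with roles in DNA repair, had 38.8, 25.8 and 28.4 CPM after DMSO and 52.1, 45.8 and 43.9 CPM after MPM-1 and rose by 0.61 (SE 0.15, adjusted p = 0.00581).

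SIRT3 (chr11:215458-236931), the main deacetylase of the mitochondrial matrix, was at 10.0, 12.7 and 15.8 CPM after DMSO and at 7.25, 8.88 and 7.71 CPM after MPM-1. It fell, with a log2 fold change of -0.69 (SE 0.19, adjusted p = 0.0115), but not without DMSO replicate 3 (-0.52, adjusted p = 0.058). PSMD13, which overlaps SIRT3 on the other strand, was at 133 and 132 CPM with a log2 fold change of -0.0083. SIRT4 (chr12:120302316-120313249), a mitochondrial acyl-group remover, had 4.79, 4.12 and 4.72 CPM in DMSO and 1.61, 2.70 and 1.43 CPM in MPM-1 libraries. It fell by 1.25 (SE 0.28, adjusted p = 0.00421). SIRT5, the mitochondrial desuccinylase, overlapped at 5.97 to 10.7 and 6.99 to 8.75 CPM (log2 fold change -0.08, SE 0.22, adjusted p = 0.785). SIRT2, mostly cytoplasmic, was at 40.004 ± 4.83 and 39.996 ± 2.17 CPM (log2 fold change 0.00, SE 0.10, adjusted p = 0.998).

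Of the 7 arginine methyltransferases, 3 fell and 1 rose, a share of 57.1% where 56.5% of all genes passed. PRMT6 (ENSG00000198890, chr1:107056679-107067636), which methylates H3R2, had 2.18, 3.96 and 3.49 CPM after DMSO and 0.197, 1.20 and 0.745 CPM after MPM-1, from 72 to 171 counts in the former and 6 to 37 in the latter. The treatments did not overlap, and the log2 fold change was -2.16 (SE 0.51, adjusted p = 0.00549), between -2.72 and -1.71 with 1 library left out. PRMT9, which methylates a splicing factor, fell by 0.68 (adjusted p = 0.00461), and the monomethylating PRMT7 fell by 0.53 (adjusted p = 0.00637). PRMT5 (chr14:22920511-22929585), the main symmetric dimethylating enzyme, was at 110, 104 and 102 CPM in DMSO libraries and at 167, 177 and 177 CPM in MPM-1 libraries. It rose by 0.72 (SE 0.07, adjusted p = 3.24e-05), every treated library lying far above every control. PRMT1, still the most abundant per transcript length at 197 ± 4.10 FPKM after MPM-1, was at 305 ± 8.14 and 294 ± 3.86 CPM (log2 fold change -0.05, adjusted p = 0.5). It did pass as lower with library size alone (-0.21, adjusted p = 0.0183) and in every limma setting on FPKM (-0.20, adjusted p = 0.0192 to 0.0204). PRMT2 (0.29, adjusted p = 0.165) and PRMT3 (-0.13, adjusted p = 0.456) did not pass.

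The balance between related enzymes was compared per transcript length, as the log2 ratio of FPKM within each library, over 14 pairs. With 3 libraries against 3, an exact two-sided permutation test cannot give a p-value below 0.1, and 7 pairs reached it (0.2 after Benjamini-Hochberg adjustment over the 14), so that none could pass 0.05. UHRF1 stood at 0.534, 0.999 and 0.726 of the UHRF2 level in DMSO libraries and at 0.0833, 0.131 and 0.125 in MPM-1 libraries. The mean log2 ratio was -0.46 ± 0.45 (SD, n = 3) in the former and -3.17 ± 0.36 in the latter, a difference of -2.72. SUV39H1 over SUV39H2 shifted by -1.34, KDM1A over KDM1B by -1.27, DNMT3B over DNMT3A by -1.16, DNMT1 over DNMT3A by -0.51 and KDM5A over KDM5B by -0.38 (-0.20 in CPM), while KDM2A over KDM2B shifted by 1.07. In FPKM, the treatments did not overlap in any of these 7 pairs, and in the other 7 they did. EZH2 over EZH1 differed by -0.22 (exact p = 0.4), EHMT1 over EHMT2 by 0.23 (exact p = 0.2), KMT2C over KMT2D by 0.58 (exact p = 0.2) and NSD2 over NSD1 by 0.39 (exact p = 0.3). KMT2A over KMT2B differed by -0.048 (exact p = 0.7) and KDM6A over KDM6B by -0.063 (exact p = 0.8). HDAC1 over HDAC2 (-0.74, exact p = 0.4) rests on an FPKM of HDAC2 whose relation to its count differed between libraries. The FPKM of KMT2C, KMT2D and EHMT1 also moved against their counts, by up to 1.61-, 1.42- and 1.28-fold. Shifts in CPM were 0.76 for KMT2C over KMT2D, 0.37 for EHMT1 over EHMT2 and -0.34 for HDAC1 over HDAC2, without overlap. EZH2 over EZH1, NSD2 over NSD1, KMT2A over KMT2B and KDM6A over KDM6B overlapped in CPM too. Ratios in CPM were not tested.

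**Figure D3:**
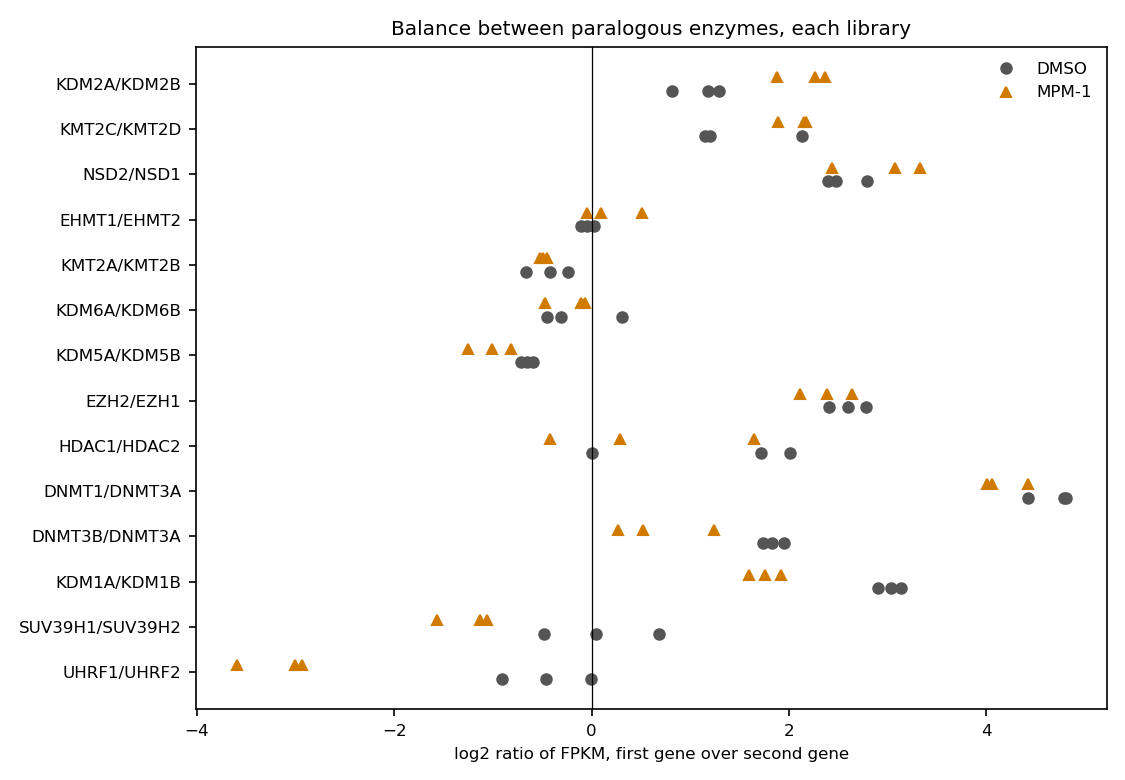
Log2 ratio of FPKM of the first gene over the second in each library, for 14 pairs, with grey circles for the 3 DMSO libraries and orange triangles for the 3 MPM-1 libraries. The treatments are widest apart for UHRF1 over UHRF2, at a mean of -0.46 against -3.17.

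The partners of these enzymes were described with lists written for each complex. Of 10 measured accessory subunits of PRC2, 2 rose and 5 fell, and EPOP, which links PRC2 to elongin, was at 33.7, 36.1 and 33.7 CPM after DMSO and at 13.5, 16.7 and 15.7 CPM after MPM-1 (log2 fold change -1.18, adjusted p = 2.21e-05). Among 20 subunits of Polycomb repressive complex 1, 9 rose and 4 fell. Those that fell included CBX7 (log2 fold change -1.36, adjusted p = 9.7e-05) and CBX2 (-1.07, adjusted p = 0.000199), 2 alternative readers of H3K27 methylation. Of 31 deacetylase co-repressor subunits, 8 rose and 9 fell, with TRERF1 lowest at -1.36 (adjusted p = 6.31e-05). Non-catalytic subunits of the H3K4 methyltransferase (COMPASS-type) complexes gave 2 higher and 6 lower of 14, none by as much as 1 on the log2 scale. Histone acetyltransferases, which place the marks that deacetylases remove, gave 2 higher and 3 lower of 15, likewise all under 1. The median log2 fold change of these 5 lists lay between -0.27 and 0.19, beside -0.026 for all genes. In the order given, 70%, 65%, 54.8%, 57.1% and 33.3% of their genes passed, where 56.5% of all genes did.

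Other methyltransferases and demethylases outside the chosen families gave 4 higher and 9 lower of 24. The largest fall was in the ribosomal oxygenase RIOX1 (log2 fold change -2.12, SE 0.43, adjusted p = 0.00246). Its levels were low, at 3.34, 4.28 and 3.36 CPM after DMSO and at 0.525, 1.53 and 0.477 CPM after MPM-1. The largest rise was in HSPBAP1, a JmjC-domain protein (1.08, adjusted p = 0.000389). Readers of methylated CpG sites and H3K9 gave 5 higher and 6 lower of 16. HELLS, a remodeller needed for DNA methylation that was listed with the readers, was the lowest on the list at -1.24 (adjusted p = 0.000312). Among 17 measured genes that supply or use the cofactors, 5 rose and 6 fell. NAMPT, the rate-limiting enzyme of NAD salvage, was at 187, 179 and 181 CPM after DMSO and at 752, 751 and 741 CPM after MPM-1 (log2 fold change 2.04, SE 0.07, adjusted p = 8.46e-08). The cytosolic and peroxisomal enzyme IDH1, which makes 2-oxoglutarate, rose from 256 ± 22.1 to 682 ± 40.6 CPM (log2 fold change 1.41, adjusted p = 2.16e-06). Its mitochondrial counterpart IDH2 fell from 97.5 ± 3.76 to 47.1 ± 1.72 CPM (-1.05, adjusted p = 4.87e-06), and PARP1, a large consumer of NAD, fell by 1.01 (adjusted p = 1.03e-05). MAT2A, which makes S-adenosylmethionine, did not pass (-0.21, adjusted p = 0.433). The share that passed was 54.2% of the other methyltransferases and demethylases, 68.8% of the readers and 64.7% of the cofactor genes, where 56.5% of all genes passed.

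Cell cycle markers moved alongside, where 28.8% of all genes fell. Of 43 S phase markers, 38 fell and 5 did not pass, and their summed level was 1699 to 2020 CPM in DMSO libraries and 1098 to 1127 CPM in MPM-1 libraries. UHRF1 is itself on that list, and so is HELLS. Of 53 measured G2/M markers, 51 fell and 2 did not pass, from a sum of 6899 to 7351 CPM to one of 3241 to 3392 CPM, and the median log2 fold changes of both lists were -0.92 and -1.34. MKI67, the proliferation marker, had a log2 fold change of -2.17 (adjusted p = 5.66e-07), close to that of UHRF1 at -2.09. The part of these shifts in the lower levels of UHRF1, DNMT1, DNMT3B, SUV39H1 and the other enzymes was not tested.

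**Figure D4:**
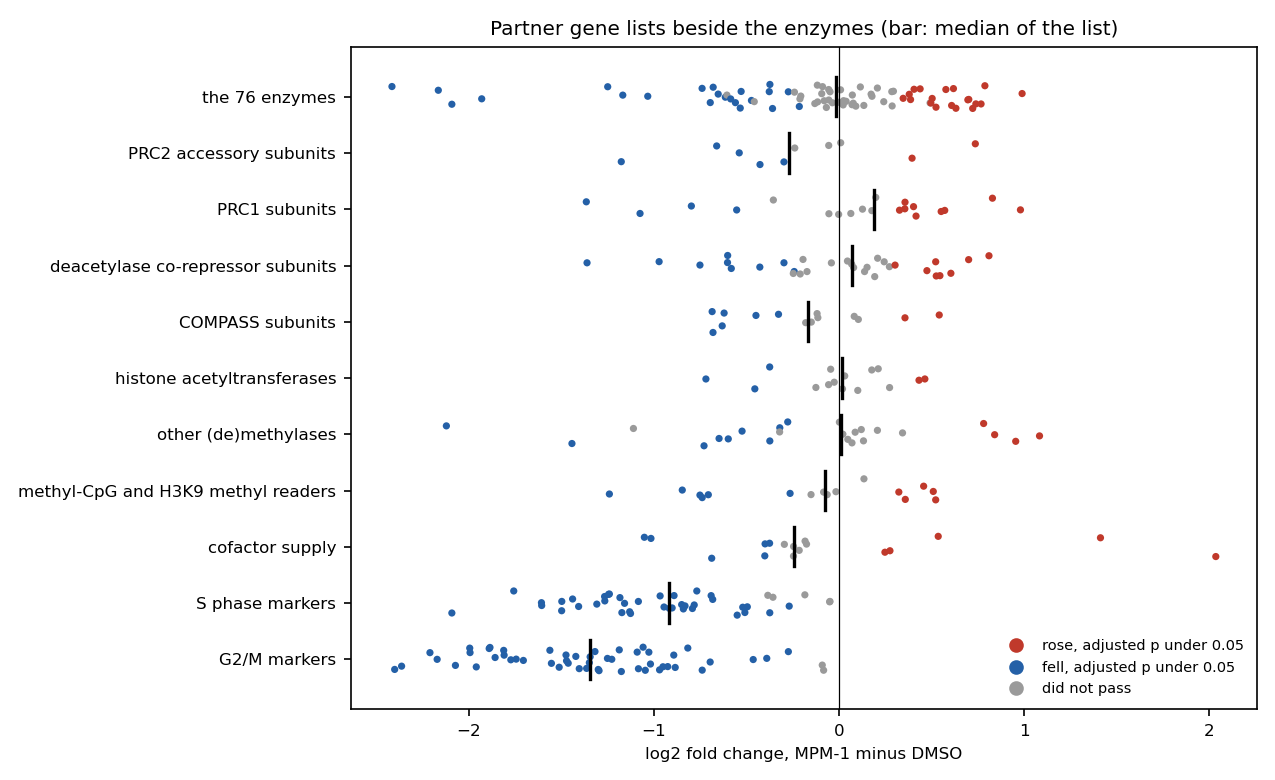
Log2 fold change of each measured gene, MPM-1 minus DMSO, for the 76 enzymes and 10 partner lists, red for rose, blue for fell and grey for not passed, with a black bar at each median. The enzymes centre on 0, whereas the S phase and G2/M markers centre on -0.92 and -1.34.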

How the data were processed

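Libraries were made from the mRNA of SW480 cells treated for 24 h, 3 with DMSO and 3 with MPM-1, and were grouped by their labels. A company prepared, sequenced and first analysed them. The authors deposited 1 table with, per gene and library, a whole-number count without normalization and an FPKM, which corrects for transcript length and depth. The deposited table also holds the authors' own log2 fold change and FDR (an adjusted p-value) for the comparison, which were not used. The submitters' processing notes name HISAT2, DESeq2 and the mouse build mm10, although 12127 of the 12982 genes carry human Ensembl identifiers. The counter, annotation, filter and use of strand are not given in the sources used here. Every gene in the table had at least 115 counts in total, so genes below that were not analysed here.

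Counts were tested in R 4.3.3 with edgeR 4.0.16 (TMM scaling, quasi-likelihood test, no covariates, common dispersion 0.0231) over all 12982 genes, with Benjamini-Hochberg adjustment. TMM factors lay between 1.03 and 1.07 (DMSO) and between 0.93 and 0.969 (MPM-1). Libraries of one treatment differed beyond sampling noise (chi-square per gene 15.4 to 33.2) and each was counted once. On simulated counts over 12982 genes, 153 of 200 genes altered by 1 on the log2 scale and 198 of 200 altered by 2 were found, none with the wrong sign. In these runs 10 and 15 unchanged genes were called. Each run altered only 200 genes, whereas 56.5% of all genes passed in the data, so these rates need not hold for the data. Alternatives were a mean of at least 50 counts, DESeq2 1.42.0 (its size factors and its test), library size alone, a replicate block, omission of each library, and limma 3.58.1 on log2(FPKM + pseudocount) with 0.1, 1 or 0.01, or with a mean of at least 1 FPKM. Fold changes on that scale understate low genes.

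Gene coordinates are from GENCODE 29 (GRCh38) and promoter sequences from RefSeq. Overlapping genes of the table were found for 19 enzymes, 4 of them on the same strand. The enzymes, their roles and the partner lists were chosen with earlier results of these data known. The text names each enzyme past the stricter threshold, the largest rise and fall of each role, all of DNA methylation, DNA demethylation, PRC2 and the sirtuins, and in each partner list the largest rise and fall past the stricter threshold. All other enzymes are given so that each is accounted for, and further genes of the lists, overlapping genes and the division of sirtuins, deacetylases and demethylases by place or substrate were added after the values were seen.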

Additional observations from a re-analysis of the deposited data

How the results depend on the processing

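Of the 41 enzymes that passed, 28 did so under every one of the 15 alternatives that tested them, 34 with each library left out, and none changed sign. Counts at an adjusted p-value under 0.05 were 11 higher and 23 lower with limma on log2(FPKM + 0.1), and 11 were higher as well with pseudocounts of 1 and 0.01 and with genes under 1 FPKM left out. The fall past the stricter threshold was found in 3 enzymes with log2(FPKM + 1), and 1 rise (KDM7A) appeared with DESeq2's size factors and with its test. With 1 library left out, 17 to 21 were higher and 17 to 21 lower, and past the stricter threshold 0 to 1 higher and 4 to 7 lower, the 4 without DMSO replicate 3 or MPM-1 replicate 3. The median log2 fold change of the 76 was -0.17 with library size alone and -0.18, -0.14, -0.18 and -0.13 with limma at pseudocounts 0.1, 1 and 0.01 and at 1 FPKM, where the median of all genes was -0.18 and then -0.17, -0.13, -0.18 and -0.15. It was -0.043 to 0.032 with 1 library left out.

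Signs turned only in values that did not pass, among them NSD2, at 0.37 without DMSO replicate 1 and 0.28 without MPM-1 replicate 2. DNMT3A was 0.047 without MPM-1 replicate 2 (range with 1 library left out -0.23 to 0.047), and SIRT5 was 0.10 without DMSO replicate 3 and 0.034 without MPM-1 replicate 1 (range -0.28 to 0.10). SIRT2 was -0.0051 with a mean of at least 50 counts, -0.15 with library size alone, -0.13, -0.12, -0.13 and -0.13 with limma, and -0.062, -0.035 and -0.030 without DMSO replicate 2, DMSO replicate 3 and MPM-1 replicate 1. In CPM, the shift of KMT2A over KMT2B was 0.033 and that of KDM6A over KDM6B was 0.031. In FPKM, where they were -0.048 and -0.063, they ranged from -0.16 to 0.053 and from -0.21 to 0.17 with 1 library left out. The cause was not tested. No pairing by replicate number was seen: deviations of same-numbered libraries correlated at 0.0214, 0.114 and -0.0737, and those of other libraries at -0.13 to 0.115. With 3 libraries per treatment this cannot show that the samples were unpaired. With the replicate block, 20 enzymes were higher and 22 lower, 0 and 7 past the stricter threshold, with a median of -0.015. TET3 lost its call there (adjusted p = 0.0501), and SETD5 (-0.71, adjusted p = 0.0328) and HDAC5 (0.30, adjusted p = 0.0197) gained one. KDM8 and PRMT6 rest on 6 to 171 counts per library.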

Other observations

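SETD5 and NSD2 split between libraries of the same treatment. SETD5 was at 69.8, 70.5 and 27.3 CPM after DMSO and at 23.9, 67.8 and 18.7 CPM after MPM-1 (log2 fold change -0.60, SE 0.47, adjusted p = 0.302). Without MPM-1 replicate 2 its log2 fold change was -1.37 (adjusted p = 0.0108). NSD2 was above 87 CPM in DMSO replicate 1 and MPM-1 replicates 1 and 3 and at 39.997 to 61.5 CPM in the other libraries.

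The deposited FPKM and counts did not keep a fixed ratio for some of the enzymes. For HDAC2, the ratio of count to FPKM differed 3.43-fold between libraries, with an FPKM of 14.9, 59.1 and 17.9 after DMSO and 15.6, 59.5 and 36.4 after MPM-1. For SETD5 the ratio differed 2.01-fold, for KMT2C 1.61-fold and for SUV39H2 1.502-fold. These 4 enzymes exceeded 1.5-fold, as did 5.49% of all genes, and the median was 1.08-fold for the enzymes and 1.04-fold for all genes.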
